A study of Mus musculus with 12 samples.

Results

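The protein shell of the cytosolic ribosome was followed here through the messenger RNAs of 88 genes out of 23163 in the count table. The members were every symbol that begins with Rpl or Rps and a digit, together with Rpsa and the stalk genes Rplp0, Rplp1 and Rplp2. That pattern matched 113 symbols, and 10 S6 kinase genes and 15 pseudogenes were left out. The 88 comprise 53 large-subunit and 35 small-subunit symbols. Of these, 77 are the standard ribosomal proteins and 11 are paralogs, retrocopies or other genes that match by symbol. Of the latter, Rpl7l1 (a relative of Rpl7) and Rps19bp1 (a binding partner of Rps19) do not encode structural proteins of the mature ribosome. The question was whether the members changed with temperature in each fat depot, and whether a difference was shared evenly among them.

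Sequenced RNA came from brown adipose tissue (BAT), the fat that burns fuel to make heat, and from subcutaneous white adipose tissue (sWAT), a lipid store in which brown-like cells can appear in cold. The animals were 20 male wild-type C57Bl/6 mice aged 8 to 12 weeks, 10 kept at 4 °C (cold) and 10 at 30 °C (thermoneutral) for 72 h. Each depot and temperature has 3 libraries of total RNA, 12 in all. Whether a library comes from 1 animal or several is not given in the labels, so p-values measure only the spread between these libraries, which may be technical. In tissue RNA of this kind, fewer cells of a type and less RNA per cell cannot be told apart.

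A ribosome joins a small subunit, which reads the messenger RNA, to a large subunit, which links the amino acids. Nearly all ribosomal proteins are present once per ribosome, and their messenger RNAs are among the most abundant in growing cells. In mammals many of these messengers begin with a stretch of pyrimidines, the 5′ terminal oligopyrimidine motif, through which the kinase complex mTORC1 controls their translation. Many of the genes also have processed pseudogenes, intronless copies that can be nearly identical to the parent, so reads of some members cannot be placed with certainty.

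Such near-identity holds for Rps27, a small-subunit protein with a zinc finger, and it is shown first because its copies went opposite ways in sWAT. In GENCODE M21 (mm10), Rps27 lies on chr3:90212522-90213651, minus strand, and Rps27rt is a single-exon copy on chr9:114982366-114982739, minus strand. Their 255-base coding sequences had 0 differences, so the sequence below stands for both. The paralog Rps27l, on chr9:66946086-66949516, plus strand, differed at 61 of 255 bases (76.1% identity), and capitals in its sequence mark those bases.
Rps27: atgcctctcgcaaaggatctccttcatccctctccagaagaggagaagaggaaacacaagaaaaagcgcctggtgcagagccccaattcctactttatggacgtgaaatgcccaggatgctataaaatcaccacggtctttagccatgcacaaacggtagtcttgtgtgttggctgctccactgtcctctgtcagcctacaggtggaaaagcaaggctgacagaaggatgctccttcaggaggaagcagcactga
Rps27l: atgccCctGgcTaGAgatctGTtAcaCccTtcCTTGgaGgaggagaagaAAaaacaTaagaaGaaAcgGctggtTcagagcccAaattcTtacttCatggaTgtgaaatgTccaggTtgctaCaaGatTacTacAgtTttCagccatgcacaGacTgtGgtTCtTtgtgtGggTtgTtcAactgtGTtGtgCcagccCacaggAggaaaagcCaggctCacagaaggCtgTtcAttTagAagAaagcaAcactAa

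Base composition is another sequence feature that went with the values in sWAT. The first 60 coding bases of 5 members, chosen after their values were seen, are shown with G and C in capitals. Rps20, Rps2 and Rpl36 were among the members that fell most in cold sWAT, and Rps24 and Rps3a1 were among those that rose.
Rps20: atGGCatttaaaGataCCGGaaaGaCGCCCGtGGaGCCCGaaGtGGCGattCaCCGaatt
Rps2: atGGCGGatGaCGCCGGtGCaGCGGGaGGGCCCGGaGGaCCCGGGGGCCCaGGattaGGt
Rpl36: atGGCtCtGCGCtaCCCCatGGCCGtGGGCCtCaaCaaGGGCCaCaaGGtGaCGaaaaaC
Rps24: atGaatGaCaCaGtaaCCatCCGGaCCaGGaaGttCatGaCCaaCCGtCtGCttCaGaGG
Rps3a1: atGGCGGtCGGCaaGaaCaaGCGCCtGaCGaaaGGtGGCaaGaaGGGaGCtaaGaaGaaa
G and C made up 31 of the 60 bases in Rps20, 44 in Rps2, 36 in Rpl36, 30 in Rps24 and 32 in Rps3a1. Over the whole coding sequence the GC content was 48.6% in Rps20 (chr4:3831334-3835665), 58.2% in Rps2 (chr17:24718116-24721929), 61.3% in Rpl36 (chr17:56613416-56614243), 46.0% in Rps24 (chr14:24487125-24496959) and 47.0% in Rps3a1 (chr3:86137940-86142702). Rps20 thus fell most with a GC content near that of Rps24 and Rps3a1, which rose. The relation over the members, given below, uses whole coding sequences.

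The libraries held 27117934 to 56243016 counts, and the thermoneutral sWAT libraries stood apart from the other 9. Genes encoded in mitochondrial DNA took 0.181% to 0.307% of their counts, against 17.6% to 53.8% elsewhere. Summed marker levels, in CPM (counts scaled to library size, with TMM factors), also differed between cold and thermoneutral sWAT. The 16 lymphocyte markers summed to 280 to 829 CPM in cold and 1053 to 1453 at thermoneutrality, the 10 macrophage markers to 294 to 445 and 980 to 1547, and the 8 fibroblast markers to 1081 to 1705 and 3449 to 5772. Most of the fibroblast sum came from the collagen genes Col1a1, Col1a2 and Col3a1. In the same list Pi16 was at 48.2 to 65.3 CPM in cold and 106 to 127 at thermoneutrality, but Dpt overlapped, at 134 to 196 and 153 to 250. The 7 brown adipocyte markers summed to 4523 to 17270 CPM in cold and 193 to 860 at thermoneutrality, where up to 1 of them had 0 counts. The 6 endothelial markers summed to 418 to 538 CPM in cold sWAT and 196 to 334 at thermoneutrality. In BAT, lymphocyte markers summed to at most 15.6 CPM, and the 8 adipocyte markers had counts in all 12 libraries (12114 to 28427 CPM). Single adipocyte markers went opposite ways in sWAT. Fabp4 was at 7686 to 13505 CPM in cold and 459 to 1441 at thermoneutrality, and Cfd at 2503 to 5079 and 5930 to 10299. The part of these differences in the results below was not tested, and a technical difference of the 3 thermoneutral sWAT libraries cannot be told apart from depot and temperature.

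Ribosomal protein genes took a larger share of the counts in thermoneutral sWAT than in any other group. The 88 genes took 7.28%, 8.15% and 7.20% of counts in thermoneutral sWAT libraries 1, 2 and 3. They took 1.17%, 1.87% and 1.57% in cold sWAT, 1.06%, 1.02% and 0.342% in cold BAT, and 1.85%, 1.37% and 1.54% in thermoneutral BAT. The lowest thermoneutral sWAT share was above the highest share of the other 9 libraries, and BAT cold library 3 was the lowest of all 12. Group means were 7.54% ± 0.532 (SD, n = 3) for thermoneutral sWAT, 1.53% ± 0.349 for cold sWAT, 0.808% ± 0.404 for cold BAT and 1.59% ± 0.244 for thermoneutral BAT. Wilson 95% intervals, which cover counting error only, were widest for thermoneutral sWAT library 2, at 8.14% to 8.16%. With mitochondrial counts left out of the total, the share was still 7.21% to 8.18% in thermoneutral sWAT and 0.740% to 2.84% elsewhere.

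**Figure D1:**
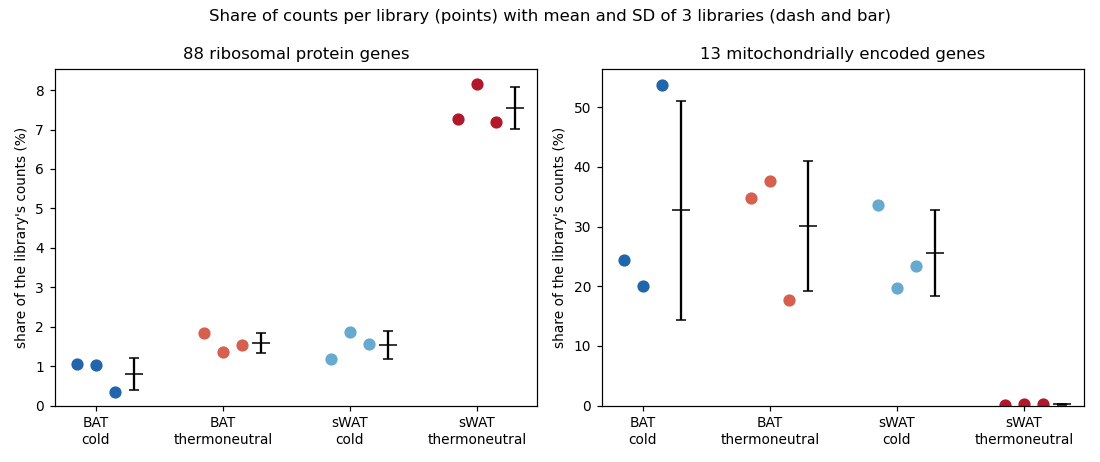
Share of each library's counts (%, vertical axis from 0) taken by the 88 ribosomal protein genes (left) and by the 13 mitochondrially encoded genes (right), with 1 point per library and the mean and SD of 3 libraries beside them. The thermoneutral sWAT libraries are the highest on the left (7.20% to 8.15%) and the lowest on the right (0.181% to 0.307%).

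Cold sWAT was compared with thermoneutral sWAT to see which members make up that difference. Most members fell in cold, but 8 rose, so the direction was not shared by all. Of 86 members tested, 49 fell and 8 rose at an adjusted p under 0.05 in the quasi-likelihood test of edgeR, adjusted by Benjamini-Hochberg over all genes, while 24.1% of all 15731 genes tested fell and 25.1% rose. Their median log2 fold change was −1.35, against 0.00 for all genes. In CPM, 50 members were lower in every cold library than in any thermoneutral library and 8 were higher, against 30.5% and 30.1% of all genes. Leaving out a library moved the count of rises to 13 without thermoneutral library 1 and to 7 without cold library 3, and the falls to 36 and 37.

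The 3 largest falls, of Rps20, Rps2 and Rps7, were in the small subunit. Rps20, a protein of the small-subunit head, was at 59.97, 193 and 111 CPM in cold sWAT and at 1575, 2095 and 1432 CPM at thermoneutrality. The groups were far apart, and BAT stayed near the cold sWAT level, with 70.3 ± 41.0 CPM in cold and 159 ± 32.1 CPM (SD, n = 3) at thermoneutrality. The log2 fold change of Rps20 in sWAT was −3.82 ± 0.49 (SE; edgeR adjusted p = 0.000639), a 14.2-fold fall.

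Rps2 lines the messenger RNA entry side of the small subunit. It was at 108, 248 and 239 CPM in cold sWAT and at 1395, 2541 and 1877 CPM at thermoneutrality, without overlap. Its log2 fold change was −3.30 ± 0.45 (edgeR adjusted p = 0.000841).

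Rps19 acts in the maturation of the small subunit, and human RPS19 is the gene most often mutated in Diamond-Blackfan anaemia. It was at 69.8, 114 and 123 CPM in cold sWAT and at 992, 911 and 621 CPM at thermoneutrality, a log2 fold change of −3.05 ± 0.37 (edgeR adjusted p = 0.000538). The groups did not overlap. Rps7, also of the small subunit, had a single thermoneutral library close to the cold level, with 217, 183 and 24.1 CPM at thermoneutrality and 7.97, 24.8 and 12.1 CPM in cold. Its log2 fold change of −3.26 ± 0.76 passed in edgeR (adjusted p = 0.00771), but not without cold library 1 (−2.95, adjusted p = 0.0805, with 6.42e-06 to 0.0805 over all settings). Altogether 20 of 30 small-subunit members tested fell and 2 rose, with a median of −1.68.

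In the large subunit 27 of 43 members fell and 2 rose, with a median of −1.28. Rpl36 was at 28.6, 195 and 149 CPM in cold sWAT and at 916, 1429 and 783 CPM at thermoneutrality. The groups did not overlap, although cold library 1 was well below the others, and the log2 fold change was −3.08 ± 0.65 (edgeR adjusted p = 0.00508). Rpl37, Rpl18 and Rpl37a fell by similar amounts, with log2 fold changes of −2.96, −2.90 and −2.90. Rpl3, which shapes the peptidyl transferase region, was tighter between libraries, at 281, 288 and 245 CPM in cold against 825, 915 and 767 CPM at thermoneutrality. The fall of Rpl3 was −1.62 ± 0.29 (edgeR adjusted p = 0.00258).

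The stalk is the flexible arm to which translation factors dock. Rplp2 was at 57.2, 467 and 254 CPM in cold sWAT and at 1511, 1752 and 1013 CPM at thermoneutrality, without overlap, and fell by 2.48 ± 0.66 on the log2 scale (edgeR adjusted p = 0.0141). Rplp1, with 170, 1176 and 315 CPM in cold against 1886, 2435 and 1236 CPM at thermoneutrality, had −1.76 ± 0.67 and did not pass (0.0551). Rplp0, the stalk base, was at 389, 862 and 688 CPM and at 1409, 1172 and 1178 CPM, a difference of −0.97 ± 0.37 that did not pass (edgeR adjusted p = 0.0576). The groups of both Rplp1 and Rplp0 were separate in CPM. Rpsa, a small-subunit protein also known as the laminin receptor precursor, was at 830, 997 and 781 CPM in cold and at 1221, 1225 and 1224 CPM at thermoneutrality. Its difference of −0.50 ± 0.31 (edgeR adjusted p = 0.205) was among the smaller ones. Per kb of coding sequence, Rpl41, whose coding sequence is the shortest of the members at 78 bases, had the highest CPM of the members in every group, from 4835 ± 1186 in thermoneutral BAT to 19512 ± 6841 CPM per kb in thermoneutral sWAT (SD, n = 3). The transcript of Rpl41 has 582 bases and the reads have 100, so this rank rests on dividing by the coding length. Rpl41 fell by 1.53 ± 0.53 on the log2 scale in sWAT (edgeR adjusted p = 0.0399), a call lost without cold library 3 (0.125) or thermoneutral library 1 (0.121) or 2 (0.117) and with the GC correction (−1.03, 0.102), the length correction (0.0510) or the replicate block (0.0568), with 0.00750 to 0.125 over all settings.

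Rps6, the small-subunit protein that the S6 kinases phosphorylate, fell by 1.01 ± 0.31 (edgeR adjusted p = 0.0249), from 712, 706 and 470 CPM at thermoneutrality to 334, 303 and 302 CPM in cold. Among the kinase genes, Rps6kb1 rose by 1.37 ± 0.33 on the log2 scale (edgeR adjusted p = 0.00844) and Rps6kb2 fell by 0.74 ± 0.23 (0.0263).

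Of the 8 members that rose in cold sWAT, 4 are standard ribosomal proteins. Rps24, a small-subunit protein also mutated in human Diamond-Blackfan anaemia, was at 471, 591 and 476 CPM in cold and at 45.1, 59.1 and 149 CPM at thermoneutrality. The groups did not overlap, and thermoneutral library 3 was the highest of its group. The log2 fold change of Rps24 was 2.59 ± 0.48 (edgeR adjusted p = 0.00283), and 3.31 without that library.

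Rps3a1 was at 578, 351 and 289 CPM in cold sWAT and at 136, 59.0 and 98.2 CPM at thermoneutrality. Its log2 fold change was 2.05 ± 0.43 (edgeR adjusted p = 0.00469). Rpl21, of the large subunit, was at 383, 426 and 408 CPM in cold and at 198, 97.7 and 127 CPM at thermoneutrality, a rise of 1.52 ± 0.34 (0.00647). Neither gene's groups overlapped.

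Rpl5 carries 5S ribosomal RNA into the large subunit together with Rpl11, and the pair differed in direction. Rpl5 was at 4.89, 4.38 and 7.14 CPM in cold sWAT (264, 147 and 228 counts) and at 0.697, 0.170 and 0.663 CPM (30, 7 and 35 counts) at thermoneutrality, a rise of 3.40 ± 0.53 (edgeR adjusted p = 0.00142). Rpl11 was at 195, 183 and 260 CPM in cold and at 640, 627 and 378 CPM at thermoneutrality, a fall of 1.37 ± 0.34 (edgeR adjusted p = 0.00986). All 100-base windows of the Rpl5 coding sequence also occur in transcripts of other genes, so how its reads were assigned is uncertain. The same holds for Rpl11 and Rps6, and in part for Rps7 (92.0% of windows shared), Rps20 (81.6%), Rpl21 (76.6%) and Rps2 (69.1%).

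**Figure D2:**
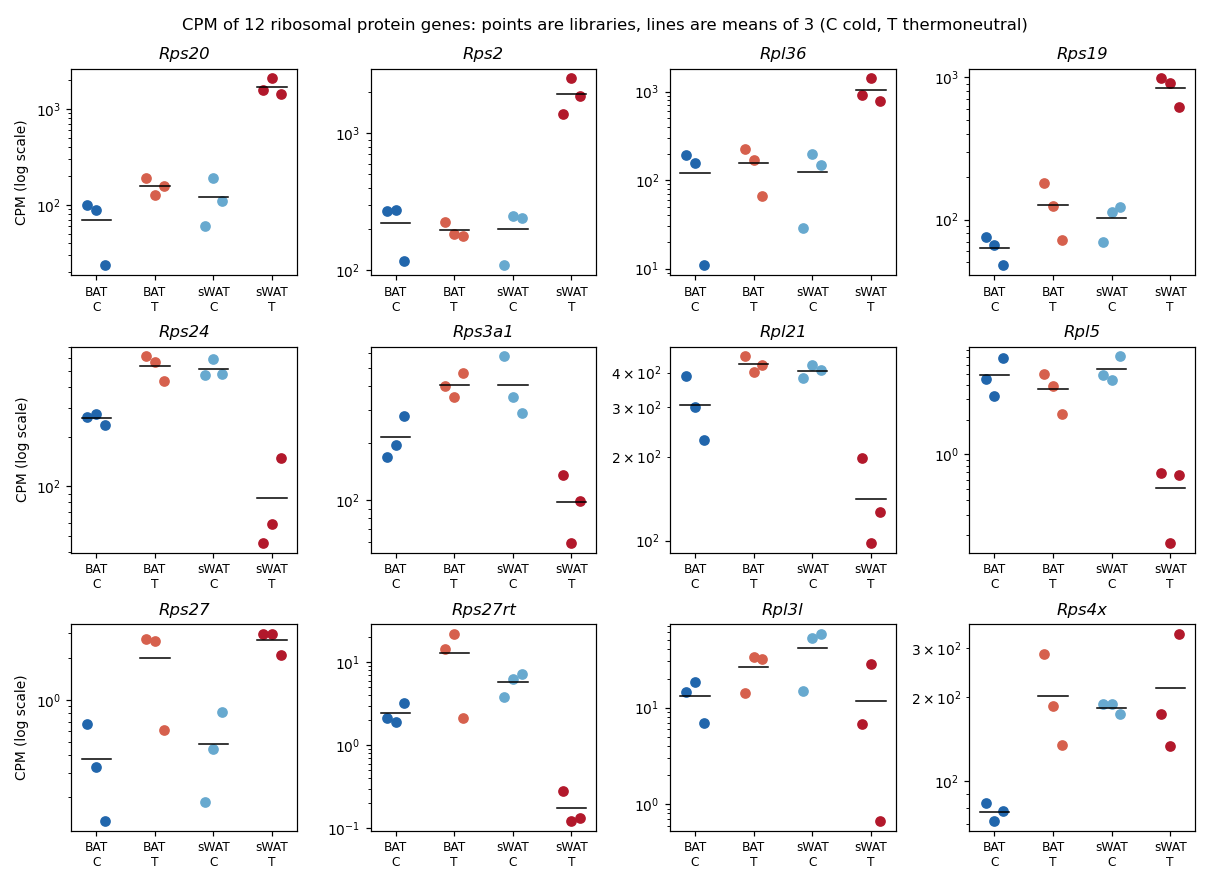
CPM on a log axis for 12 ribosomal protein genes in the 12 libraries, with a line at the mean of 3 libraries per group (C cold, T thermoneutral). Rps20, Rps2, Rpl36 and Rps19 are highest in thermoneutral sWAT, whereas Rps24, Rps3a1, Rpl21, Rpl5 and Rps27rt are lowest there, for Rps24 at 45.1 to 149 CPM.

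The other 4 members that rose were Rps27rt, Rpl22l1, Rpl37rt and Rpl7l1, all outside the standard set. Rps27rt had 203, 213 and 230 counts in cold sWAT (3.76, 6.35 and 7.20 CPM) and 12, 5 and 7 counts at thermoneutrality (0.279, 0.121 and 0.133 CPM). It rose by 4.99 ± 0.49 on the log2 scale (edgeR adjusted p = 0.000290). Rps27 itself, with the same coding sequence, was at 0.185, 0.447 and 0.814 CPM in cold and at 2.95, 2.98 and 2.10 CPM at thermoneutrality, a fall of 2.51 ± 0.53 (edgeR adjusted p = 0.00525). Without cold library 3 the log2 fold change of Rps27 was −3.11. Both stayed under 3 CPM in thermoneutral sWAT, and the division of reads between them is uncertain. Rps27l, which has no 100-base window in common with another gene, was at 21.7, 35.8 and 64.4 CPM in cold and at 53.8, 51.3 and 40.5 CPM at thermoneutrality. These groups overlapped, with a difference of −0.26 ± 0.37 (edgeR adjusted p = 0.581).

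Rpl22l1, the paralog of Rpl22, rose from 0.442, 0.340 and 0.417 CPM (19, 14 and 22 counts) to 3.21, 3.13 and 5.54 CPM. The log2 fold change was 3.29 ± 0.41 (edgeR adjusted p = 0.000553). Rpl22 was at 56.8, 79.4 and 87.0 CPM in cold and at 164, 38.4 and 51.4 CPM at thermoneutrality, where a single library exceeded every cold one (−0.20 ± 0.51, edgeR adjusted p = 0.764). Rpl37rt, 99.7% identical to Rpl37 over 344 aligned transcript bases, rose by 1.54 ± 0.36 (edgeR adjusted p = 0.00768) while Rpl37 fell. Rpl7l1, a nucleolar relative of Rpl7, rose by 1.16 ± 0.31 (edgeR adjusted p = 0.0134), a call lost without cold library 3 (0.0531, with 0.00306 to 0.0531 over all settings). Rpl7 had 0.48 ± 0.47 and did not pass.

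Rpl3l replaces Rpl3 in mature striated muscle. It was at 14.8, 51.9 and 58.1 CPM in cold sWAT and at 6.84, 27.9 and 0.663 CPM at thermoneutrality, and the groups overlapped (1.82 ± 1.01, edgeR adjusted p = 0.161). The mean level of 12 skeletal muscle markers ran 675, 1880 and 1835 CPM in the same cold libraries and 176, 476 and 11.2 CPM in the thermoneutral ones. The libraries had the same order for Rpl3l and for the markers at thermoneutrality, with library 2 highest and library 3 lowest. The part of muscle RNA in the level of Rpl3l was not tested.

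Of the remaining members outside the standard set, Rps19bp1, a nucleolar partner of Rps19, fell by 1.46 ± 0.51 (edgeR adjusted p = 0.0416, and 0.0540 to 0.133 when cold library 2 or any 1 thermoneutral library was left out, with 0.0125 to 0.148 over all settings). Rpl36al, Rps4l and Rpl39l had −0.07 ± 0.40, −0.26 ± 0.57 and −0.43 ± 0.36 and did not pass. Rps12 had 0 counts in 11 libraries and 1 in the other, below the 0.0556 to 0.134 CPM that 3 counts stand for. It did not pass the filter of the main tests. Its pseudogene Rps12-ps3 had 28 to 718 counts per library. Rpl6l had 0 to 6 counts per library and did not pass that filter either.

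**Figure D3:**
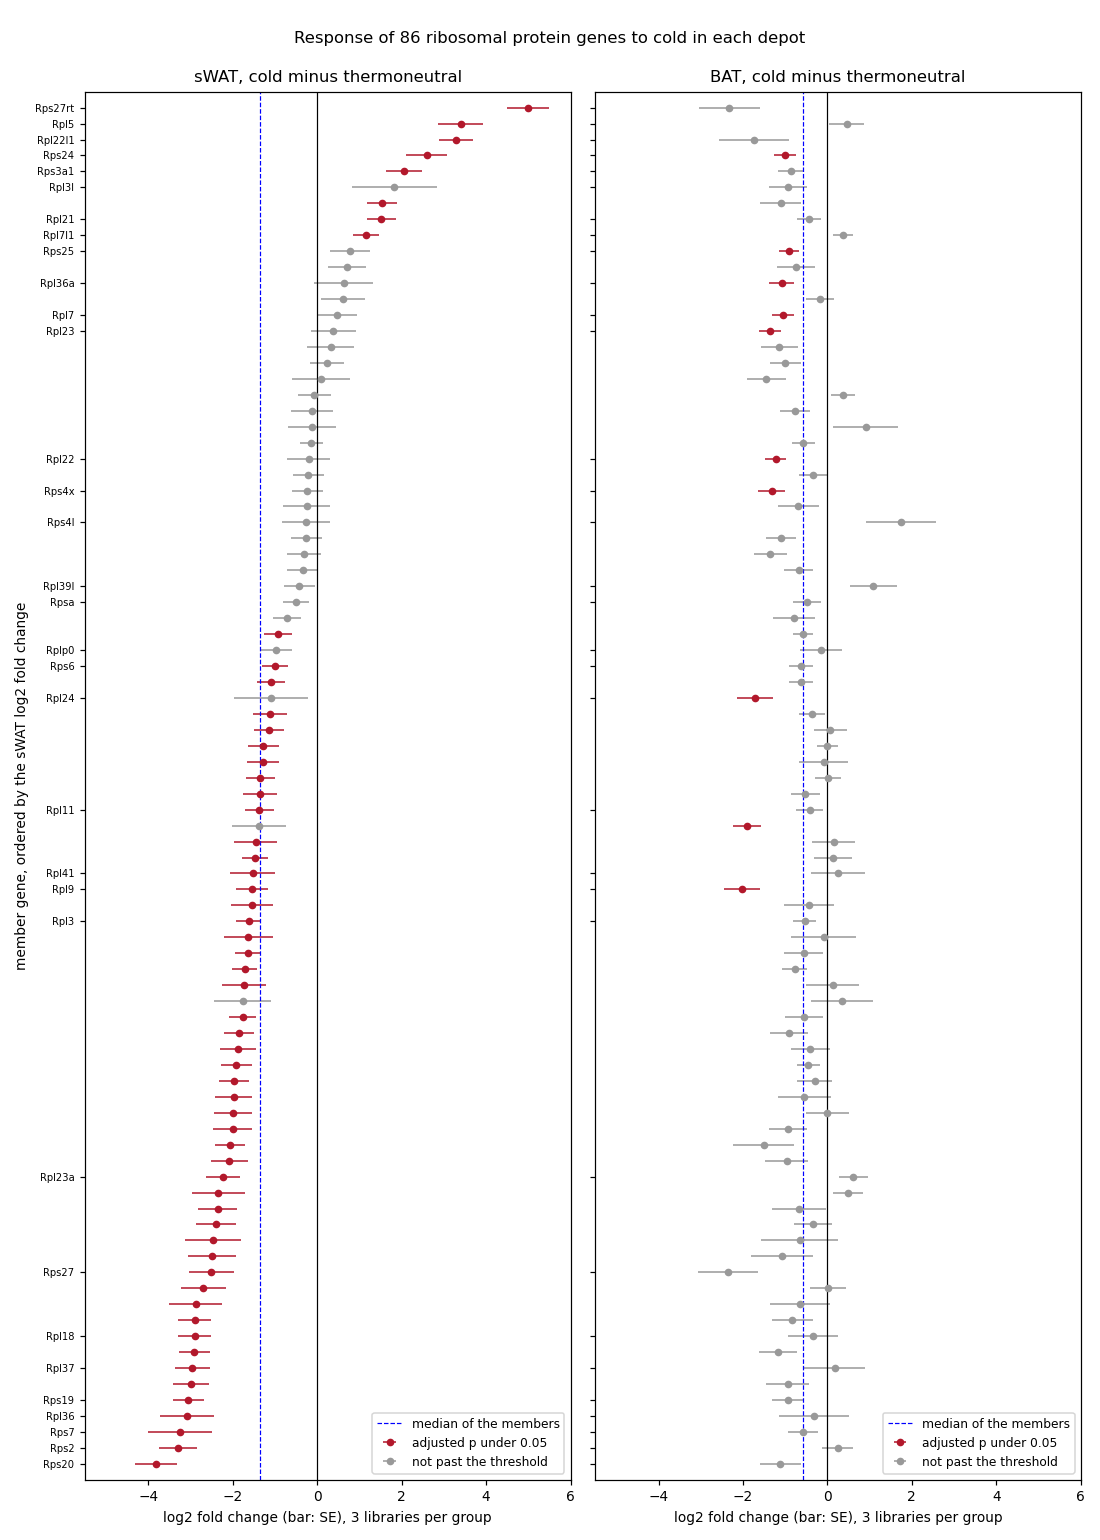
Log2 fold change, cold minus thermoneutral, with SE bars for 86 members in sWAT (left) and BAT (right), both ordered by the sWAT value, with the names of some members on the axis. Red points passed an adjusted p of 0.05, and the dashed lines mark the medians of −1.35 and −0.58. The sWAT values run from −3.82 for Rps20 to 4.99 for Rps27rt.

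Whether the excess in thermoneutral sWAT was uniform was examined by scaling each library to its own summed ribosomal protein counts. On that scale a member that moves with the pool has a log2 fold change of 0. The members were not uniform, since 30 of 86 were higher in cold relative to the pool and 14 lower in edgeR at an adjusted p under 0.05. Of all genes 64.4% were higher and 1.89% lower on this scale, because the pool itself fell. The SD of the members' log2 fold changes was 1.66, against a median SE of 0.38. With the geometric mean of the members as the pool, 19 were higher and 24 lower. Without thermoneutral library 2 the counts were 19 and 8.

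Relative to the pool, Rps20 fell by 2.32 ± 0.32 on the log2 scale (edgeR adjusted p = 0.000420) and Rps2 by 1.77 ± 0.33 (0.00180). Rpl3 had 0.00 ± 0.30 (edgeR adjusted p = 0.990) and Rpl41 −0.02 ± 0.37 (0.961). Rps24 rose by 4.09 ± 0.60 (0.000563; 5.03 without thermoneutral library 3) and Rps3a1 by 3.74 ± 0.57 (0.000666; 3.04 without cold library 1). Rpsa, which did not pass in the comparison above, rose by 1.10 ± 0.30 relative to the pool (edgeR adjusted p = 0.0113), a call lost without thermoneutral library 2 and with the geometric mean pool (0.61, adjusted p = 0.157, with 0.00701 to 0.157 over all settings). Of the 10 members tested outside the standard set, 8 were higher relative to the pool and 0 lower in edgeR, beside the 64.4% of all genes that were higher on this scale. At an unadjusted p under 0.05 there were 9, a level for which the share of all genes is not given here. Of the 30 small-subunit members, 9 were higher and 8 lower.

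The members' responses in sWAT followed the GC content of their coding sequences. Across 84 members with a coding sequence, Spearman's rho between the sWAT log2 fold change and coding GC was −0.63, and it was −0.65 within the standard proteins. Among the 28 members with the lowest GC (39.6% to 50.2%), 6 rose and 7 fell, with a median of 0.01. Among the 28 in the middle, 1 rose and 19 fell (median −1.54), and among the 28 with the highest GC (54.4% to 61.3%), 0 rose and 23 fell in edgeR (median −1.93). Rps20 (48.6% GC) and Rps7 (49.4%), 2 of the 3 members that fell most, stand outside this order. All these points come from the same 6 libraries, and members are not independent replicates.

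The same order was seen over all genes. Over 15331 genes the log2 fold change in sWAT had a rho of −0.53 with transcript GC, against −0.42 for the members on that measure. With a GC correction fitted in each library, the members' counts were 8 higher and 47 lower, their median moved to −1.13 and their rho with coding GC to −0.48. Other features went less with the response: rho was 0.03 with coding length, −0.29 with mean level, and −0.06 with the share of 100-base coding windows found in other genes. Those windows were shared in full by 23 members and not at all by 10. At least 50% of them were shared in 60 members, and the median was 70.6%.

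**Figure D4:**
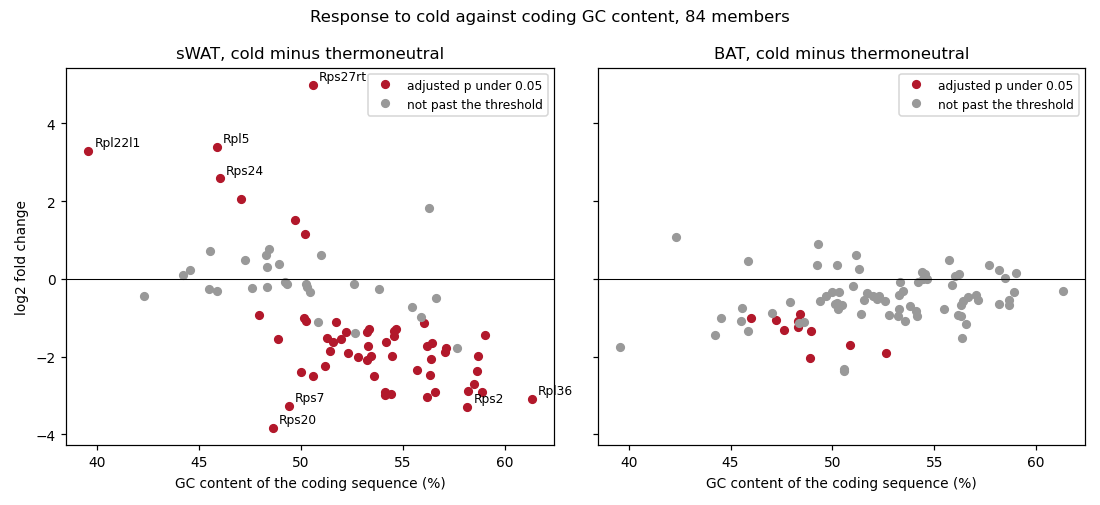
Log2 fold change, cold minus thermoneutral, against the GC content of the coding sequence (%) for 84 members in sWAT (left) and BAT (right), 1 point per gene, red where the adjusted p was under 0.05. In sWAT the values fall with GC (rho −0.63), with Rps20 below and Rps27rt above the other members of like GC, and in BAT rho is 0.34.

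The transcription starts of the members were searched for the pyrimidine motif in RefSeq windows of GRCm38.p6, which matched 66 of 88 members by symbol. A run of at least 7 C or T that touches the 5 bases on either side of the listed start was present in 26 (39.4%), against 13.5% of 27025 genes. The letters CTTTC lay within 15 bases of the start in 17 (25.8%), against 3.97% of genes, and on the other strand in 4.55% against 3.43%. The letters CCGGAA, the core bound by ETS factors, occurred on either strand of the 300-base window in 33 of 66, against 15.2% of genes. Windows around 4 starts, chosen after their values were seen, are shown, each with its run of pyrimidines in capitals: Rps9 (chr7:3704026-3704055, plus strand) and Rpl18 (chr7:45718056-45718085, plus strand), which fell in cold sWAT, and Rpl22l1 (chr3:28805493-28805522, plus strand) and Rps3a1 (chr3:86142654-86142683, minus strand), which rose.
Rps9: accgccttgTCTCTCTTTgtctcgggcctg
Rpl18: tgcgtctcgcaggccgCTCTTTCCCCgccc
Rpl22l1: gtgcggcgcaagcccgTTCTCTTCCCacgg
Rps3a1: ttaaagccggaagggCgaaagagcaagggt
Such a run was present in 17 of 36 members that fell and have a window, and in 1 of 7 that rose, Rpl22l1. Across the members with a window, rho between the length of the run and the sWAT log2 fold change was −0.25. A match in these windows is a description of the letters only.

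BAT was compared in the same way, cold against thermoneutral. Here the members leaned lower in cold and none rose. Of 86 tested, 10 fell and 0 rose in edgeR, where 5.34% of all 14612 genes fell and 6.82% rose, and the median of the members was −0.58 against −0.04 for all genes. DESeq2 called 16 lower and limma-voom 9, with 0 higher in both, and 23 members had an unadjusted p under 0.05. The shares of all genes beside these counts are not given here, so the counts are not read as particular to the members. In CPM 28 members were lower in every cold library than in any thermoneutral library and 1 was higher, against 19.7% and 16.0% of genes.

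Among the 10 were Rps4x, Rps25 and Rps24 of the small subunit and Rpl9, Rpl24, Rpl23, Rpl22, Rpl7 and Rpl36a of the large one. Rpl9, of the large subunit, was at 18.4, 15.3 and 15.2 CPM in cold BAT and at 110, 67.3 and 31.3 CPM at thermoneutrality (−2.03 ± 0.42, edgeR adjusted p = 0.0196). Every cold library was below every thermoneutral one. Rps4x, which lies on the X chromosome, was at 83.1, 71.6 and 78.3 CPM in cold and at 286, 186 and 135 CPM at thermoneutrality (−1.32 ± 0.31, edgeR adjusted p = 0.0306), again without overlap.

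Rpl23, of the large subunit, was at 192, 168 and 187 CPM in cold BAT and at 455, 423 and 576 CPM at thermoneutrality. It fell by 1.35 ± 0.26 (edgeR adjusted p = 0.0157). Rps25, needed by some internal ribosome entry sites, was at 109, 99.4 and 109 CPM and at 218, 199 and 204 CPM, and fell by 0.91 ± 0.23 (0.0393). Rps24 fell in cold BAT by 1.01 ± 0.27 (edgeR adjusted p = 0.0428), the reverse of its direction in sWAT. The values of Rps24 were 264, 276 and 235 CPM in cold BAT and 617, 568 and 432 CPM at thermoneutrality, with no overlap.

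Rps27 and Rps27rt fell together in BAT in value, by 2.36 ± 0.71 and 2.32 ± 0.72, but neither passed (edgeR adjusted p = 0.0651 and 0.0698). The highest values in cold were those of Rps4l (1.74 ± 0.83, edgeR adjusted p = 0.206) and Rpl39l, a paralog of Rpl39 known from the testis (1.09 ± 0.57, 0.239). Medians in BAT ran the other way with GC than in sWAT. The 28 with the lowest GC had 8 falls and a median of −0.95, and the 28 with the highest GC had 0 calls in edgeR and a median of −0.33.

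The number of calls in BAT changed, in both directions, with the library left out. Without cold library 1 there was 1 fall, without cold library 2 there were 0, without thermoneutral library 1 there were 2 and without thermoneutral library 2 there were 0, all in edgeR. Without thermoneutral library 3 there were 19 falls and 1 rise, and without cold library 3, the library with the lowest ribosomal protein share and a mitochondrial share of 53.8%, there were 8 falls and 3 rises. With both libraries numbered 3 left out, a choice made after seeing the data, 37 fell and 8 rose, with a median of −0.45. The shares of all genes called in these refits are not given here. Shifts in these counts are therefore not read as particular to the members. Relative to the pool, 0 members passed in either direction in edgeR, where 4.95% of all genes were higher and 0.561% lower. There 9 had an unadjusted p under 0.05, a level for which the share of all genes is not given here, and limma-voom also called 0.

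The response to cold was then compared directly between the depots, as the sWAT log2 fold change minus that of BAT in a fit over all 12 libraries. In edgeR 12 members were lower in this difference and 8 higher, against 7.85% and 17.3% of 16365 genes, with a median of −0.88 (0.12 for all genes). Rps2 had the largest negative difference (−3.47 ± 0.59, adjusted p = 0.00202). In BAT it was at 271, 277 and 116 CPM in cold and at 224, 184 and 176 CPM at thermoneutrality, groups that overlapped. Rpl23a, which lies at the exit of the peptide tunnel of the large subunit, had −2.79 ± 0.54 (edgeR adjusted p = 0.00365), with 144, 186 and 185 CPM in cold BAT, 82.8, 91.9 and 175 CPM in thermoneutral BAT, 130, 204 and 130 CPM in cold sWAT and 612, 1079 and 486 CPM in thermoneutral sWAT. Rps24 (3.66 ± 0.56, adjusted p = 0.00126) and Rps3a1 (2.98 ± 0.52, adjusted p = 0.00223) had large positive differences, of 4.35 without sWAT thermoneutral library 3 and 2.39 without sWAT cold library 1.

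In this difference Rps27rt had 7.38 ± 0.98 (edgeR adjusted p = 0.000675) and Rpl22l1 5.10 ± 1.03 (0.00465), both at low counts in thermoneutral sWAT. The log2 difference of Rps27rt moved to 6.48 without BAT thermoneutral library 2, and that of Rpl22l1 to 4.31 without BAT thermoneutral library 1. The number of lower members ranged from 6, without BAT cold library 1, sWAT cold library 3 or sWAT thermoneutral library 1 or 2, to 38 without BAT cold library 3. It was 20 without BAT thermoneutral library 1 or sWAT cold library 2, and the number higher was 16 without sWAT thermoneutral library 1. The shares of all genes in these refits are not given here, so these shifts are not read as particular to the members. Rpl37 lost its call when any 1 of 6 libraries was left out, with no filter on low counts, with limma-voom and with the replicate block (adjusted p from 0.000636 to 0.101 over all settings), as did Rpl6 when BAT cold library 1, sWAT cold library 3 or sWAT thermoneutral library 1 or 2 was left out (up to 0.0734, with 0.00219 to 0.0734 over all settings). Rpl5 (3.01 ± 0.68, edgeR adjusted p = 0.00790) had 1.88 and did not pass with the GC correction (0.0615, with 0.000457 to 0.0615 over all settings). The log2 difference of Rpl37rt moved from 2.70 to 1.88 without BAT thermoneutral library 2. Rpl13a lost its call without sWAT thermoneutral library 1 (adjusted p = 0.0540, with 0.00133 to 0.0540 over all settings).

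The depots were also compared at each temperature. This comparison at thermoneutrality shares the thermoneutral sWAT libraries with the comparisons above, so its values are given beside theirs and not as separate evidence. At thermoneutrality 48 members were lower in BAT than in sWAT and 10 were higher in edgeR, against 28.8% and 29.9% of genes, with a median of −1.29 (0.03 for all genes). In CPM 52 were lower without overlap and 9 higher, against 33.6% and 32.3%. Rps7 (−3.51 ± 0.67), Rps20 (−3.42 ± 0.55) and Rps2 (−3.31 ± 0.44) were lowest in BAT, with edgeR adjusted p of 0.000670, 0.000185 and 4.98e-05. Rps27rt (6.15 ± 0.78), Rpl22l1 (3.28 ± 0.76), Rpl5 (2.84 ± 0.51) and Rps24 (2.67 ± 0.41) were highest in BAT. Their values moved to 5.43 for Rps27rt without BAT thermoneutral library 2, 2.66 for Rpl22l1 without BAT thermoneutral library 1 and 3.36 for Rps24 without sWAT thermoneutral library 3. The call of Rpl22l1 was lost with limma-voom (2.33, adjusted p = 0.0545) and with the GC correction and replicate block (1.76, 0.0750, with 1.63e-05 to 0.0750 over all settings). Without sWAT thermoneutral library 1, 17 were higher.

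The depot difference at thermoneutrality minus that in cold is the same contrast as the difference of the cold responses tested above. In cold the median of the members was −0.58 in BAT relative to sWAT (−0.03 for all genes), and 77 of 86 had negative values, but only Rps4x passed in edgeR (−1.24 ± 0.36, adjusted p = 0.0361) and 0 were higher, against 11.1% of genes lower and 1.19% higher. DESeq2 called 2 lower, limma-voom 1 and neither any higher, and 11 members had an unadjusted p under 0.05. The share of all genes under that unadjusted p is not given here, so the 11 are not read as particular to the members. In CPM 23 members were lower in every BAT library and 0 higher, against 21.8% and 13.4% of genes. Rps4x was at 83.1, 71.6 and 78.3 CPM in cold BAT and at 189, 189 and 174 CPM in cold sWAT, with no overlap. Its call was lost whichever single library was left out (adjusted p from 0.0693 to 0.171), with 0.0151 to 0.171 over all settings. The SD of the members' differences in cold was 0.42, against 1.75 at thermoneutrality.

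Among other genes of translation in sWAT, Rack1 moved the way most members did. Rack1, a scaffold protein of the small subunit, fell by 2.20 ± 0.34 (edgeR adjusted p = 0.00124), from 1037, 1242 and 1218 CPM at thermoneutrality to 213, 336 and 218 CPM in cold. Of 7 elongation factor genes 1 rose and 2 fell (median −0.46), and of 34 initiation factor genes 14 rose and 5 fell (median 0.66), beside 25.1% and 24.1% of all genes. Eif3e, an initiation factor subunit, rose by 4.15 ± 0.49 (edgeR adjusted p = 0.000488). Of 15 other genes known for a 5′ terminal oligopyrimidine motif 2 rose and 5 fell, with a median of −0.46. Of 46 genes of ribosome biogenesis 9 rose and 8 fell (median 0.01), and Gnl3, the nucleolar GTPase nucleostemin, rose by 2.55 ± 0.26 (edgeR adjusted p = 0.000337). Of 77 mitochondrial ribosomal proteins, which build a separate ribosome, 23 rose and 4 fell (median 0.37), with Mrpl1 at 4.44 ± 0.36 (edgeR adjusted p = 0.000198). No count in these lists was read as particular to the list. In BAT the median was 0.04 for elongation factors, 0.12 for initiation factors, 0.07 for biogenesis and 0.16 for mitochondrial ribosomal proteins.

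Of 20 genes of the mTORC1 and S6 kinase axis, 4 rose and 5 fell in cold sWAT (median −0.06), shares near the 25.1% and 24.1% of all genes, and 4 rose and 2 fell in cold BAT (median 0.23), where 6.82% and 5.34% of all genes did. Mtor, the kinase at its centre, rose in both, by 2.18 ± 0.40 in sWAT (edgeR adjusted p = 0.00268) and by 2.54 ± 0.26 in BAT (0.00175). Deptor, an inhibitor of the complex, rose by 4.46 ± 0.37 in sWAT (0.000198) and by 2.53 ± 0.39 in BAT (edgeR adjusted p = 0.00760). Ddit4, from the same list, fell by 3.17 ± 0.52 in sWAT (edgeR adjusted p = 0.00164).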

How the data were processed

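The authors deposited whole-number raw counts for 12 libraries, with no normalization. Per the labels' protocols these were total RNA libraries from 1000 ng of RNA, read as pairs of 100 nt. Per the submitters' processing notes STAR, DESeq2 and mm10 were used. Counting tool, strand setting and treatment of reads with several placements were not given in the sources used here. Totals were 27117934 to 56243016 counts, and 0 columns lacked a sample. Names of 2 columns, in cold BAT (library 1) and cold sWAT (library 2), contain the word merged.

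Members and lists were chosen with earlier results of these data known, and Rpl37rt and Rpl6l were placed among the retrocopies, and the GC, window and start features chosen, after seeing the data. All 23163 genes entered each fit in R 4.3.3 with edgeR 4.0.16 (filterByExpr, TMM scaling, glmQLFit with robust=TRUE, glmQLFTest), with Benjamini-Hochberg adjustment over all genes tested and a threshold of 0.05. Cold was compared with thermoneutral within the 6 libraries of each depot, and 4 group means over 12 libraries gave the depot comparisons. A log2 fold change was given an SE of |log2 fold change|/√F. For uniformity, library size was the summed member count and normalization factors were 1. CPM are scaled by TMM over 12 libraries, as mean ± SD. The tests were also run on simulated data.

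Named members are the 5 highest and 5 lowest log2 fold changes per comparison, the 5 highest mean CPM, the paralogs beside their main copies and members that did not pass the filter. Further members that illustrate a count or a role, and single cell type markers given in CPM, were chosen after their values were seen. From each other list up to 3 called genes with the smallest adjusted p may be named. Some members that these rules or counts include are not reported here by name. Alternatives were other scalings and filters, DESeq2 1.42.0, limma-voom (limma 3.58.1), a replicate block, GC and length corrections and leaving out each library. Sequences, positions and GC came from GENCODE M21, for 22240 genes (96.0%) and all 88 members, and start windows from RefSeq. Python 3.11.15 and Biopython 1.88 were used for these.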

Additional observations from a re-analysis of the deposited data

Results flagged for a closer look

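The response to cold differed between sWAT and BAT for 20 ribosomal protein genes, by the interaction term of edgeR's quasi-likelihood fit over 12 libraries at an adjusted p under 0.05. They are 12 lower and 8 higher of 86, where 7.85% and 17.3% of all genes were called, so the number called is near that of genes in general. Values are the sWAT log2 fold change minus that of BAT. In the large subunit the negative differences were those of Rpl37 (−3.06), Rpl23a (−2.79), Rpl13a (−2.77), Rpl18 (−2.49), Rpl37a (−2.00) and Rpl6 (−1.41), and the positive ones those of Rpl21 (2.01) and Rpl5 (3.01). In the small subunit Rps2 (−3.47), Rps29 (−2.64), Rps20 (−2.63), Rps7 (−2.61), Rps19 (−2.04) and Rps23 (−1.99) were negative, and Rps25 (1.75), Rps3a1 (2.98) and Rps24 (3.66) were positive. The remaining members were the paralogs and retrocopies Rpl37rt (2.70), Rpl22l1 (5.10) and Rps27rt (7.38). All rest on the 3 thermoneutral sWAT libraries, whose composition differed from the other 9.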

How the results depend on the processing

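In sWAT 36 to 46 members fell and 7 to 13 rose when a library was left out. In BAT leaving out a library gave 0 to 19 falls and 0 to 3 rises. DESeq2 gave 16 falls, the replicate block 18, the GC correction 17, both together 25, and both libraries numbered 3 left out 37 falls and 8 rises. For the difference between depots 6 to 38 members were lower and 7 to 16 higher without a library, and 20 were lower with RLE scaling or with scaling on the remaining genes, 22 with DESeq2 and 22 with the length correction. At thermoneutrality 35 to 47 were lower and 9 to 17 higher in BAT without a library. In cold 0 to 0 were called without a library, 2 were lower with upper quartile scaling or DESeq2, and 0 with the length correction or with scaling on the remaining genes.

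Relative to the pool, sWAT had 19 to 29 members higher and 8 to 15 lower without a library, and 19 higher and 24 lower with the geometric mean pool, where the members' median reversed from 0.26 to −0.22. Rpl39l reversed to −0.11 with the GC correction. In BAT the pool-relative counts were 5 higher and 2 lower with the replicate block, 2 and 3 with the GC correction, 3 and 1 with the length correction, 0 to 3 and 0 to 2 without a library, and 13 and 19 without both libraries numbered 3. Upper quartile scaling moved the median of all genes in BAT from −0.04 to −0.20, and RLE scaling that of the difference between depots from 0.12 to −0.03. The cause of these changes was not tested. Shares of all genes called under these settings are not given here. The member counts therefore show only how far calling depended on the setting. Of calls of named members in sWAT, 15 of 19 held under all settings run, and of those in BAT 0 of 6. For the difference between depots 7 of 11 held, at thermoneutrality 15 of 19 and in cold 0 of 1. Relative to the pool in sWAT, 13 of 23 held. Those lost there under some setting were Rps7, Rpl36, Rpsa, Rpl3l, Rpl39l, Rps27l, Rpl7, Rpl22, Rpl36a and Rps4x.

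Sample titles number the libraries by experiment, and what an experiment shared is not given. Same-numbered libraries were not treated as pairs. Between cold and thermoneutral their deviations correlated at 0.31, 0.07 and 0.29 in BAT and at −0.23, 0.19 and −0.31 in sWAT. Between BAT and sWAT they correlated at 0.02, 0.22 and 0.07 at thermoneutrality and at −0.47, 0.53 and −0.30 in cold. Differently numbered libraries ran from −0.42 to 0.46 between temperatures in sWAT and from −0.62 to 0.58 between depots in cold. The depot comparisons treated all 12 libraries as independent, although both depots may come from the same animals. Rps12, Rpl6l, Rps27, Rps27rt, Rpl5 and Rpl22l1 rest on low counts. All 100-base windows of Rps12, Rps27, Rps27rt and Rpl5 also occur in transcripts of other genes, as do 61.9% of those of Rpl6l and 58.5% of those of Rpl22l1. The parts of depth and read placement in these counts were not tested.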
